A study of Homo sapiens with 18 samples.

Results

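The genes of the mitochondrial ribosomal proteins (MRP genes) were followed through 18 RNA-seq libraries of MDA-MB-231, a human triple-negative breast cancer cell line. Members were all protein-coding genes with a symbol starting MRPL (large subunit) or MRPS (small subunit) and at least 10 counts in 3 or more libraries. That rule kept 77 of the 78 such symbols, out of 60709 genes with counts, and all 77 entered the tests. The gene left out, MRPL53, had 0 counts in all 18 libraries. A count of 0 allows up to 3 counts, which is 0.347 to 1.06 CPM in 17 libraries and 11.4 CPM in the shallowest. Part of its exon sequence is shared with CCDC142 on the same strand.

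The 6 groups of 3 libraries combined 2 hairpin lines with 3 treatments. In one line, sh-IGFBP6, a short hairpin RNA targets IGFBP6. The other, sh-LUC, carries a control hairpin and is listed in the labels as wild type. All groups thus carried a hairpin. The labels do not say whether either line is 1 clone or what drives the hairpin. Cells of both lines received, for 24 h, a control medium with 0.5% DMSO and 0.5% ethanol, 200 µM docosahexaenoic acid (DHA, an omega-3 fatty acid) or 2.5 µM erastin, a blocker of cystine uptake that induces ferroptosis. DHA was given in ethanol with 0.5% DMSO, and erastin in DMSO with 0.5% ethanol, after 24 h of plating. Nothing in the labels says that the samples of a group were separate cultures, so p-values here reflect sample-to-sample spread that may be technical.

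Mitochondria keep a ribosome of their own, which translates the few messenger RNAs of the mitochondrial genome, all for subunits of oxidative phosphorylation. Its ribosomal RNAs come from that genome, while its proteins are encoded in the nucleus, made in the cytosol and imported. Some have counterparts in bacterial ribosomes and others are found in mitochondria alone. The members divide by role into 16 small-subunit proteins with bacterial counterparts, 10 mitochondria-specific small-subunit proteins, 29 large-subunit proteins with bacterial counterparts and 21 mitochondria-specific large-subunit proteins. MRPS36 is kept apart, because it is known as a subunit of the 2-oxoglutarate dehydrogenase complex. MRPS18A and MRPS30 sit in the large subunit in spite of their symbols. Mitochondrial ribosomal proteins under other symbols, such as DAP3, PTCD3, AURKAIP1, CHCHD1 and GADD45GIP1, fall outside the symbol rule, so these role groups are not complete.

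Promoter windows from RefSeq (GRCh38.p14, 250 bases before to 50 after a start) were matched to 68 members, giving 84 windows. The motif CCGGAAG, which ETS family factors such as GABPA bind, was found on either strand in 38.1% of member windows and 10.3% of all 35116 windows compared. AAGATGG, the core of a YY1 motif, was in 32.1% and 5.84%. At least 1 match lay wholly before a start in 8 of the 24 members with AAGATGG and in 24 of the 29 with CCGGAAG. The other motifs searched on both strands were GCGCATG (NRF1, 8.33% and 4.43%), GAANNTTC (heat shock element, 8.33% and 6.77%), TGACNNNGC (antioxidant response element, 10.7% and 13.3%) and CACGTG (E-box, 10.7% and 7.26%). Of 29 members with CCGGAAG in a window, 19 were called higher in untreated sh-IGFBP6 cells, as were 25 of 39 without it. In that comparison of the untreated lines, described below, 32.5% of all tested genes were called higher. Shown here are 5 members whose RNA moved with a compound: MRPL18 (chr6:159790217-159790465, plus strand), MRPL3 (chr3:131502984-131503221, minus strand), MRPS34 (chr16:1773156-1773206, minus strand), MRPL58 (chr17:75012420-75012669, plus strand) and MRPS25 (chr3:15065336-15065565, minus strand). Each is the longest stretch before a start that no GENCODE 29 exon covers, read 5′ to 3′ on the gene's strand. Capitals mark CCGGAAG or its reverse complement.
MRPL18: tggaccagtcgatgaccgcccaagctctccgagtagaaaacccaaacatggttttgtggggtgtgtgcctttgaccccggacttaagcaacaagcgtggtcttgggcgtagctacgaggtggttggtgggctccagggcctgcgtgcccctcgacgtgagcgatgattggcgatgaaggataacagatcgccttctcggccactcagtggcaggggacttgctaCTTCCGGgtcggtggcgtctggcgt
MRPL3: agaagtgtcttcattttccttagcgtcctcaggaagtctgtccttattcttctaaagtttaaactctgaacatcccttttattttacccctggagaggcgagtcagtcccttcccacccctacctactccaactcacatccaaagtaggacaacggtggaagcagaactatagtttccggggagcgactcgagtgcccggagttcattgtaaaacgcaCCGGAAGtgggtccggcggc
MRPS34: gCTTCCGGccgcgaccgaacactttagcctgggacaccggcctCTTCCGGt
MRPL58: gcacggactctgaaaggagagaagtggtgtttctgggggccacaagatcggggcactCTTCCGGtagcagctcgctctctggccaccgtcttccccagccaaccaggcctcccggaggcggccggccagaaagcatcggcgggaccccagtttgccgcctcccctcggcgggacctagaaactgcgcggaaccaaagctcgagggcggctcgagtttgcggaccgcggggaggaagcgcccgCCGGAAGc
MRPS25: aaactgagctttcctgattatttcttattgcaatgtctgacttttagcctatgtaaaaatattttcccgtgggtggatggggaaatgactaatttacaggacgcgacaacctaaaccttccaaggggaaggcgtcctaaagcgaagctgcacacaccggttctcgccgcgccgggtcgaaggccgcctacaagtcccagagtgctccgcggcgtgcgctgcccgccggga
Of these 5, MRPS34 and MRPL58 held 2 matches each, MRPL18 and MRPL3 held 1 each, and MRPS25 held 0. A match is a run of letters and was not tested for binding.

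Libraries held 609936 to 7977429 gene counts, and the median count per member ran from 72 to 222 in 17 of them. The exception was sh-IGFBP6 erastin replicate 3, where mitochondrial ribosomal RNAs took 54.4% of counts, against 0.035% to 0.504% elsewhere. It held 766 counts on members, with a median of 8 per member. Some results from that group, though not all, are also given without it. IGFBP6 was lower in untreated sh-IGFBP6 cells (log2 fold change -3.72, SE 0.27, edgeR adjusted p = 7.3e-26). VIM and CD44, markers of this line, summed to 1561 to 2337 CPM in every library, and the luminal markers ESR1, PGR and CDH1 to at most 7.43 CPM. The sum hides opposite moves between the untreated lines. CD44 averaged 1335 CPM in sh-LUC control and 651 CPM in sh-IGFBP6 control, while VIM averaged 757 and 1138 CPM. For CDH1 the averages were 5.97 and 0.146 CPM, for ESR1 0.555 and 1.47 CPM, and for PGR 0.354 and 0.347 CPM.

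Levels per gene length were compared as CPM per kilobase of exon, averaged over the 18 libraries, where CPM is counts per 1000000 of the TMM-scaled library. They ran from 0.885 for MRPL46 to 45.8 for MRPS10, with MRPS16 at 44.1 and MRPL14 at 43.7 next to the top. MRPS24 (0.919) and MRPL38 (1.32) stood next to the bottom. The order differed by line. In sh-LUC control MRPL14 (46.8 CPM per kilobase) and MRPS10 (41.4) led and MRPL46 (0.683) was lowest. In sh-IGFBP6 control MRPS16 (59.7) and MRPL51 (57.4) led, MRPL14 stood at 40.3, and MRPS24 (0.902) was lowest. The 3 lowest members by CPM per kilobase over the 18 libraries share exon bases with another annotated gene on the same strand. The labels do not say how the counting treated such reads.

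Untreated sh-IGFBP6 and sh-LUC cells were set side by side to see where MRP genes stood before any compound. MRP RNA was higher in sh-IGFBP6 cells. Summed over the 77 members it was 2208 ± 46.6 CPM in sh-LUC control and 3288 ± 35.9 CPM in sh-IGFBP6 control (SD, n = 3), and the libraries did not overlap (2161 to 2254 and 3264 to 3329). Small-subunit genes summed to 772 ± 14.1 and 1226 ± 15.9 CPM, and large-subunit genes to 1423 ± 33.4 and 2047 ± 22.1 CPM (SD, n = 3). CPM are shares of a library, so more MRP RNA and less of other RNA cannot be told apart, nor, in bulk libraries, can fewer cells of a type and less RNA per cell.

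**Figure D1:**
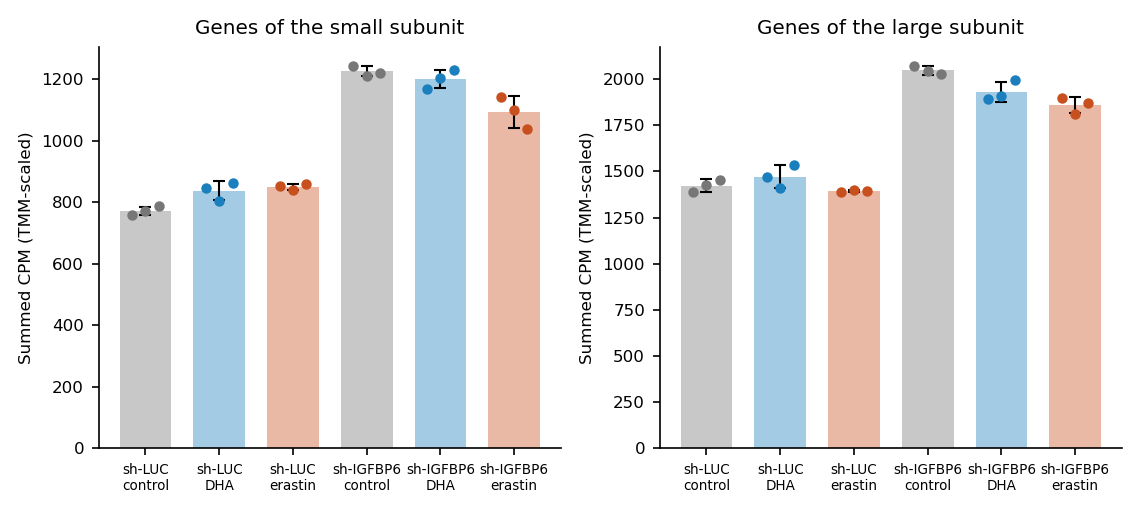
Summed CPM of small-subunit (left) and large-subunit (right) MRP genes in each library (points), with group means (bars) and SD (n = 3). In both panels all 9 sh-IGFBP6 libraries lie above all 9 sh-LUC libraries.

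By edgeR's test (called at an adjusted p below 0.05), 50 members were higher and 4 lower in untreated sh-IGFBP6 cells. The same calls covered 32.5% and 32.1% of all 15189 genes tested (64.6% in either direction). The member median was a log2 fold change of 0.50, against 0.01 for all genes. For 51 members every sh-IGFBP6 control library lay above every sh-LUC control library, and for 4 below (34.1% and 33.2% of all tested genes). Of the called members 10 were at least 2-fold higher, a count for which no share of all tested genes was computed. The SD of the log2 fold changes was 0.48 over members and 1.71 over all tested genes. By role, the calls were 7 higher and 2 lower of 16 small-subunit proteins with bacterial counterparts (median 0.17) and 9 higher and 1 lower of 10 mitochondria-specific ones (median 0.84). In the large subunit they were 20 higher and 1 lower of 29 with bacterial counterparts (median 0.53) and 13 higher and 0 lower of 21 mitochondria-specific ones (median 0.41).

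MRPS21, a small-subunit protein with a bacterial counterpart (chromosome 1, 150293720 to 150308979, plus strand, GRCh38), had 5.31, 8.12 and 5.99 CPM in sh-LUC control and 19.6, 20.4 and 22.9 CPM in sh-IGFBP6 control. Its libraries were far apart, and the log2 fold change was 1.69 (SE 0.19, edgeR adjusted p = 2.5e-14). MRPL10 (chromosome 17, 47823272 to 47831534, minus strand) belongs to the stalk, the arm that recruits translation factors. It had 26.5, 24.9 and 24.2 CPM in sh-LUC control and 69.3, 67.5 and 67.2 CPM in sh-IGFBP6 control, a log2 fold change of 1.43 (SE 0.11, edgeR adjusted p = 1.8e-24). The level of MRPS2 was 27.6, 25.9 and 29.7 CPM against 65.6, 66.3 and 67.2 CPM (1.25, SE 0.11, edgeR adjusted p = 8.7e-21). For MRPS35, a mitochondria-specific protein, it was 34.3, 34.0 and 35.0 CPM against 86.1, 77.5 and 78.8 CPM (1.22, SE 0.10, edgeR adjusted p = 4.4e-23). None of these 4 genes had overlapping libraries between the untreated lines.

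The 4 lower members were smaller differences. MRPL34, a large-subunit protein with a bacterial counterpart, had 41.8, 38.8 and 42.6 CPM in sh-LUC control and 31.0, 30.1 and 25.8 CPM in sh-IGFBP6 control (log2 fold change -0.51, SE 0.11, edgeR adjusted p = 5.2e-05). MRPS14 (-0.48, edgeR adjusted p = 0.0136), MRPS6 (-0.40, edgeR adjusted p = 0.0124) and MRPS33 (-0.39, edgeR adjusted p = 0.0399) followed. These last 3 calls were each lost without some single library: MRPS14 without sh-LUC control replicate 3 or sh-IGFBP6 control replicates 1 or 2, MRPS6 without sh-LUC control replicate 1 or sh-IGFBP6 control replicates 1 or 3, and MRPS33 without sh-LUC control replicate 3, any sh-IGFBP6 control or sh-IGFBP6 erastin replicate 1. Of the paralogs MRPS18A, MRPS18B and MRPS18C, which occupy different sites of the ribosome, MRPS18B was higher (49.1 ± 2.50 against 90.5 ± 2.14 CPM, SD, n = 3; log2 fold change 0.88, SE 0.09, edgeR adjusted p = 8.9e-16). MRPS18A (-0.06, SE 0.18) and MRPS18C (0.01, SE 0.24) did not pass the test.

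**Figure D2:**
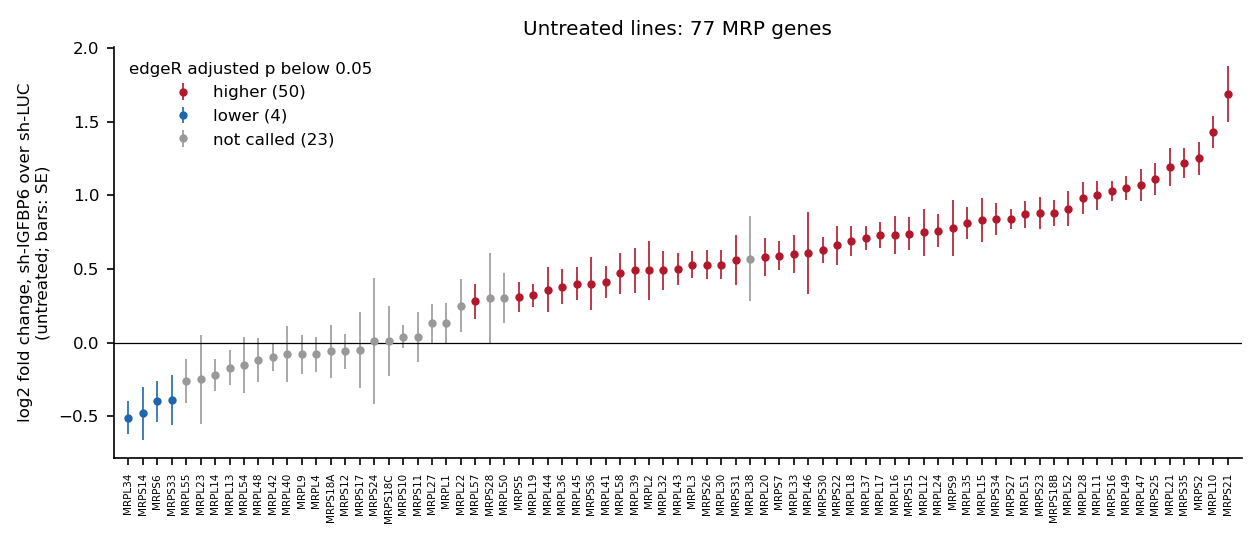
Log2 fold change (sh-IGFBP6 over sh-LUC, untreated) of the 77 MRP genes in rising order, with SE. Red and blue mark the 50 higher and 4 lower calls, grey the 23 not called, from MRPL34 (-0.51) to MRPS21 (1.69).

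Markers of other cell types moved with the line. The fibroblast markers PDGFRB, LUM and DCN summed to 32.8 to 38.9 CPM in sh-LUC control and 0.602 to 0.771 CPM in sh-IGFBP6 control, with DCN at 0 in all 3 libraries of the latter. Nearly all of it was PDGFRB, at 32.5 to 37.9 CPM and 0.301 to 0.771 CPM. In sh-LUC cells this sum was also lower with DHA (11.6 to 17.0 CPM) and erastin (14.0 to 14.5 CPM). Of the endothelial markers, PECAM1 with CDH5 summed to 3.54 to 4.51 CPM and 0.985 to 1.81 CPM, with CDH5 at 0 in sh-LUC control. The leukocyte markers PTPRC, CD14 and CD3E summed to 4.20 to 4.95 CPM and 0.771 to 2.11 CPM, with CD3E at 0 in sh-IGFBP6 control. Their part in the MRP difference between lines, or in the changes with DHA and erastin described further on, was not tested.

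Genes of neighbouring loci (other tested genes within 2 Mb on each side, 7 to 127 per member) were compared in the same contrast. The log2 fold change of 61 of 77 members lay above the median of their neighbours. Over all 77 members the difference from that median had a median of 0.39. Across members the log2 fold change correlated with the neighbour median (Pearson r = 0.39, Spearman rho = 0.38, n = 77). This correlation is across genes that share libraries and, for some, neighbours, so it carries no test. Of 33 members whose neighbours had a median below 0, 16 were called higher, against 50 of all 77 members and 32.5% of all tested genes. MRPS21 was one of them: its neighbours had a median of -0.39, and 98.5% of them lay below it. MRPL19, chosen after its values were seen, was the reverse, with a log2 fold change of 0.32 among neighbours at 0.84.

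**Figure D3:**
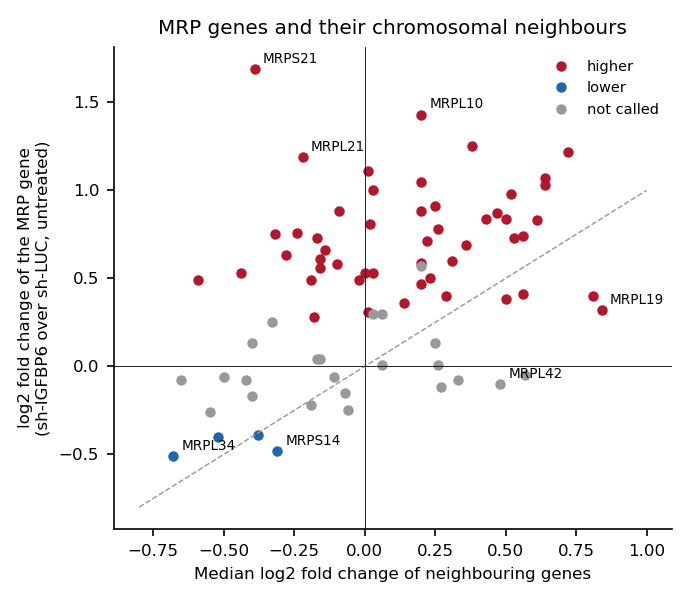
Each MRP gene's log2 fold change between untreated lines against the median of its neighbours within 2 Mb, coloured by call, with the line of equality dashed. Of the 77 genes, 61 lie above it, with MRPS21 far above and MRPL19 below.

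The rest of the mitochondrial translation apparatus was read from lists of known genes. Beside each count stand the shares of all tested genes in this contrast, 32.5% higher and 32.1% lower. In untreated sh-IGFBP6 cells, 10 of 15 translation factors were higher and 1 lower, among them SLIRP (1.76), which stabilises mitochondrial messenger RNA, and the elongation factor TUFM (1.29). Of 22 assembly and rRNA modification factors 14 were higher and 1 lower, with the methyltransferase NSUN4 at 1.47. Aminoacyl-tRNA synthetases of mitochondria gave 7 higher and 3 lower of 16. Of the 5 mitochondrial ribosomal proteins under other symbols, 3 were higher and 1 lower (median 0.38). Of 84 cytosolic ribosomal protein genes 68 were higher and 6 lower (median 0.58), so a higher level was not limited to MRP genes. Nuclear genes for subunits of oxidative phosphorylation split into 30 higher and 20 lower of 79 (median 0.12). The 13 messenger RNAs that the mitochondrial ribosome translates gave 0 calls in the edgeR fit (median -0.43). Among 9 activators of mitochondrial gene promoters 4 were higher, PPARGC1B (1.44), ESRRA (1.06), PPRC1 (0.89) and YY1 (0.42), and 2 lower, GABPA (-0.59) and MYC (-0.52).

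Erastin was set against control medium in sh-LUC cells to ask how MRP genes answered cystine deprivation. Members moved both ways: 9 rose and 12 fell, against 21.4% and 24.4% of all tested genes (45.9% in either direction), and the member median was -0.05 against -0.02. The sum stayed near control, at 2256 ± 10.6 CPM against 2208 ± 46.6 CPM (SD, n = 3). The 5 called members that changed by over 1.5-fold were MRPS6, MRPS24, MRPL18 and MRPS25 upward and MRPL16 downward. MRPS24, low at 2.09 CPM in control and 4.08 CPM with erastin on average, is outside the naming rule and was chosen after its values were seen. When libraries were scaled by total count alone, the split became 3 higher and 11 lower and the median of all genes moved to -0.12, and with no filter it was 9 higher and 6 lower.

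MRPS6, a small-subunit protein with a bacterial counterpart (chromosome 21, 34073224 to 34143034, plus strand), had 29.4, 24.3 and 20.4 CPM in sh-LUC control and 56.0, 57.0 and 48.2 CPM with erastin. Every erastin library was above every control (log2 fold change 1.15, SE 0.11, edgeR adjusted p = 4.4e-17). SLC5A3, the gene of a myo-inositol transporter, shares exon sequence and strand with MRPS6. It rose alongside (1.04, SE 0.06, edgeR adjusted p = 9.6e-30), and reads of the shared part cannot be told apart. MRPL18 (chromosome 6, 159789812 to 159798436, plus strand) belongs to the central protuberance of the large subunit. It had 31.1, 34.3 and 34.3 CPM in control and 59.2, 62.1 and 56.6 CPM with erastin (0.83, SE 0.09, edgeR adjusted p = 2.7e-13). MRPS25, a mitochondria-specific small-subunit protein (chromosome 3, 15042460 to 15065335, minus strand), went from 26.9, 22.2 and 25.6 CPM to 46.0, 39.6 and 45.1 CPM (0.81, SE 0.11, edgeR adjusted p = 4.5e-10). Its exons overlap those of NR2C2 on the other strand. MRPS30 rose less (0.38, SE 0.08, edgeR adjusted p = 5.8e-05).

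Among members that fell in sh-LUC cells, MRPL16, a large-subunit protein with a bacterial counterpart, had 20.9, 20.7 and 23.5 CPM in control and 13.5, 13.9 and 15.9 CPM with erastin (log2 fold change -0.60, SE 0.14, edgeR adjusted p = 1.2e-04). MRPS34 (chromosome 16, 1771890 to 1773155, minus strand) is a mitochondria-specific protein needed for a stable small subunit. It went from 26.9, 26.5 and 28.5 CPM to 18.7, 17.6 and 19.8 CPM (-0.55, SE 0.12, edgeR adjusted p = 6.0e-05). In both genes all erastin libraries lay below all controls. MRPL40 (-0.53) and MRPL9 (-0.48) also fell. By role, erastin in sh-LUC raised 4 and lowered 1 of 16 small-subunit proteins with bacterial counterparts and 1 and 1 of 10 mitochondria-specific ones. In the large subunit the counts were 3 higher and 6 lower of 29, and 1 higher and 4 lower of 21. Of all tested genes 21.4% were higher and 24.4% lower, and a difference between role groups was not tested.

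In sh-IGFBP6 cells erastin gave falls with 1 exception: 20 members fell and 1 rose, against 14.3% and 14.7% of all tested genes. The member median was -0.15 against 0.00 for all genes. The sum was 2969.5 ± 77.4 CPM with erastin and 3288 ± 35.9 CPM in control (SD, n = 3), and these libraries did not overlap. Without the shallow replicate 3, 19 members fell and 2 rose. Without erastin replicate 2, 7 fell and 1 rose, so the count depends on that library. The falls by role were 2 of 16 and 4 of 10 in the small subunit and 8 of 29 and 6 of 21 in the large subunit, each with bacterial counterparts first.

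MRPS34 fell here too, from 53.9, 45.7 and 48.5 CPM in sh-IGFBP6 control to 30.7, 32.8 and 38.1 CPM (log2 fold change -0.62, SE 0.11, edgeR adjusted p = 7.1e-07). MRPL41 went from 47.0, 38.4 and 41.8 CPM to 29.2, 30.2 and 26.7 CPM (-0.51, SE 0.11, edgeR adjusted p = 2.0e-04). Neither gene had overlapping libraries, though the third erastin value is from the shallow library, with 10 counts for MRPS34 and 7 for MRPL41. Of the stalk proteins, MRPL54 (-0.53, SE 0.20, edgeR adjusted p = 0.0368), MRPL12 (-0.44, SE 0.15, edgeR adjusted p = 0.0157) and MRPL11 (-0.43, SE 0.09, edgeR adjusted p = 1.5e-04) fell, and MRPL10 had 0.07 (SE 0.09). The call of MRPL54 was lost without any 1 of sh-IGFBP6 control replicates 1 or 2 or erastin replicates 1 or 2. That of MRPL12 was lost without control replicate 3 or erastin replicate 2. MRPS6 was the member that rose, from 15.7, 21.2 and 17.2 CPM to 30.0, 29.6 and 19.0 CPM (0.68, SE 0.14, edgeR adjusted p = 2.2e-05), where the value inside the control range is the shallow library. SLC5A3 rose with it (0.48, SE 0.08, edgeR adjusted p = 6.2e-08). MRPL14, MRPL16, MRPL41, MRPL51 and MRPS34 fell with erastin in both lines, which is 5 of the 12 falls in sh-LUC and 5 of the 20 in sh-IGFBP6. Of all tested genes 24.4% fell in sh-LUC and 14.3% in sh-IGFBP6. The share that fell in both lines was not computed, so the overlap cannot be read as particular to MRP genes. Exons of MRPL51 overlap NCAPD2 on the other strand, and NCAPD2 fell too (-1.22 in sh-LUC and -0.71 in sh-IGFBP6).

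**Figure D4:**
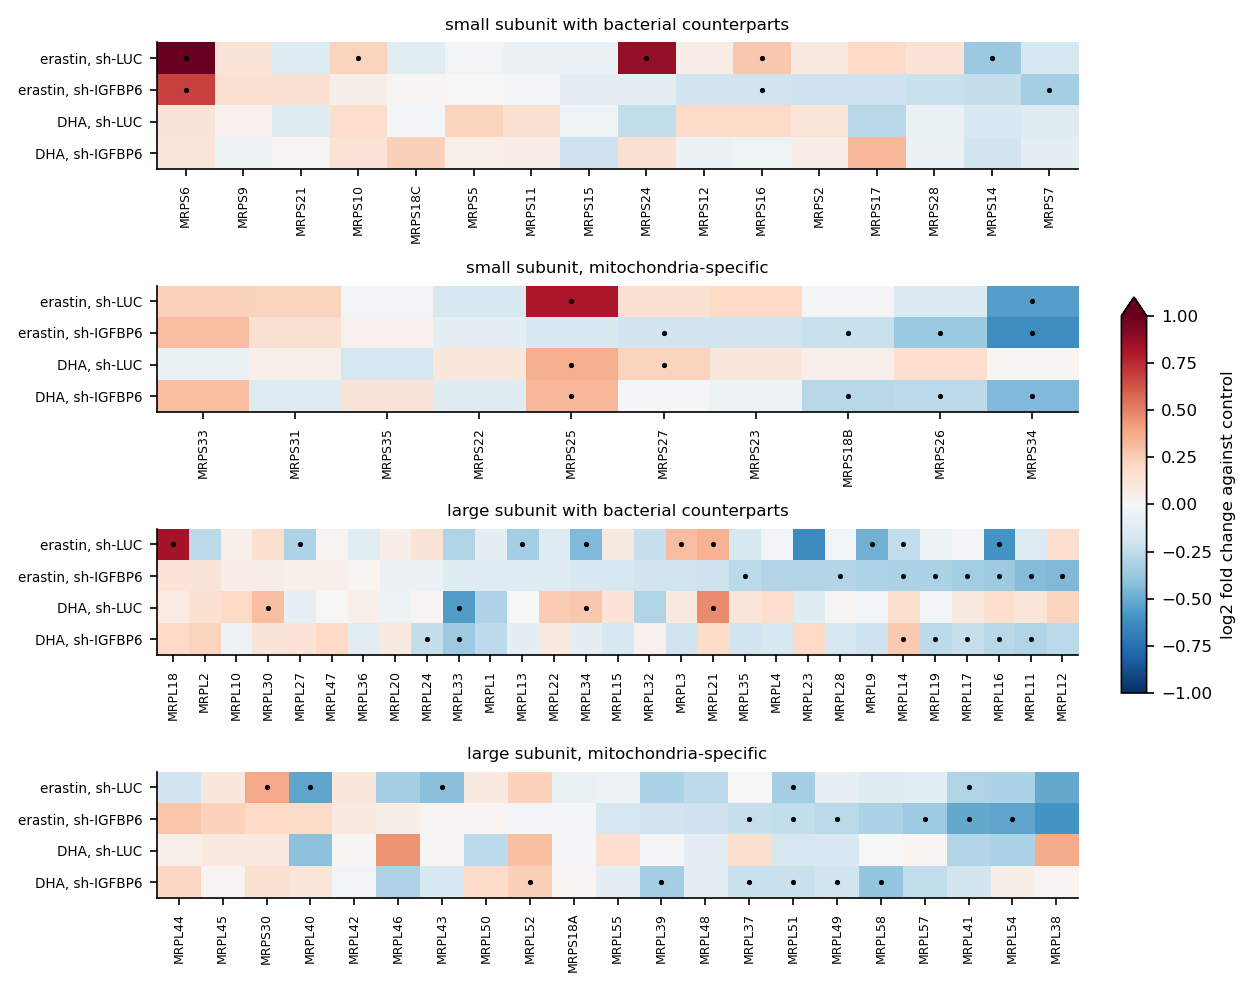
Log2 fold change against control medium for 76 MRP genes (MRPS36 is not drawn), by role (panels), compound and line (rows), with genes in order of their erastin value in sh-IGFBP6. Black dots mark edgeR calls: 21 for erastin in each line, 6 in sh-LUC cells and 17 in sh-IGFBP6 cells for DHA. The colour scale ends at 1, which MRPS6 exceeds (1.15).

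The difference between the lines in the erastin response was tested directly, as the change in sh-IGFBP6 minus the change in sh-LUC. It was called for 2 members above and 10 below zero, against 14.1% and 12.0% of all tested genes. Scaling by total count alone left 2 calls, both below zero, and DESeq2 left 6. MRPS25 differed most (-0.96, SE 0.15, edgeR adjusted p = 1.2e-07). In sh-IGFBP6 cells it had 56.9, 51.5 and 53.9 CPM in control and 45.6, 54.6 and 19.0 CPM with erastin, the last in the shallow library, and without that library the difference was -0.95. MRPL18 had 56.0, 54.4 and 51.4 CPM in sh-IGFBP6 control and 59.3, 60.9 and 45.7 CPM with erastin, the last in the shallow library. The other erastin libraries lay above every control of that line, though the change there was not called. In sh-LUC all erastin libraries lay above all controls. The difference for MRPL18 was -0.68 (SE 0.13, edgeR adjusted p = 1.8e-05), and -0.69 without the shallow library.

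MRPS16, a small-subunit protein with a bacterial counterpart, was the 1 member called in opposite directions. The share of all tested genes called in opposite directions was not computed. MRPS16 went from 76.4, 83.0 and 84.6 CPM to 94.1, 95.8 and 106 CPM in sh-LUC cells (log2 fold change 0.27, SE 0.07, edgeR adjusted p = 0.001). In sh-IGFBP6 cells it went from 170.4, 163 and 167 CPM to 153, 138 and 122 CPM (-0.20, SE 0.07, edgeR adjusted p = 0.0181). The difference was -0.48 (SE 0.10, edgeR adjusted p = 8.4e-05). The fall in sh-IGFBP6 was lost without control replicate 1 (edgeR adjusted p = 0.0623) or erastin replicate 2 (edgeR adjusted p = 0.207). The large-subunit proteins MRPL12 (-0.61), MRPL21 (-0.55) and MRPL3 (-0.51) and the small-subunit MRPS6 (-0.47) differed the same way. MRPL40 (0.72) and MRPL43 (0.45) differed the other way, having fallen in sh-LUC and not passed the test in sh-IGFBP6. Single libraries ended 4 of these calls: MRPL12 without sh-LUC control replicates 2 or 3 or sh-IGFBP6 erastin replicate 2, MRPL40 without sh-LUC control replicate 3, sh-IGFBP6 control replicates 1 or 3 or erastin replicate 1. MRPL43 lost it without sh-LUC control replicate 2, sh-LUC erastin replicate 3, sh-IGFBP6 control replicates 2 or 3 or erastin replicate 1. MRPS6 lost it without sh-LUC control replicates 2 or 3, sh-LUC erastin replicates 1 or 2, sh-IGFBP6 control replicate 2 or erastin replicates 1 or 2. For the count of members, without sh-LUC control replicate 3 the count was 1 above and 6 below.

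**Figure D5:**
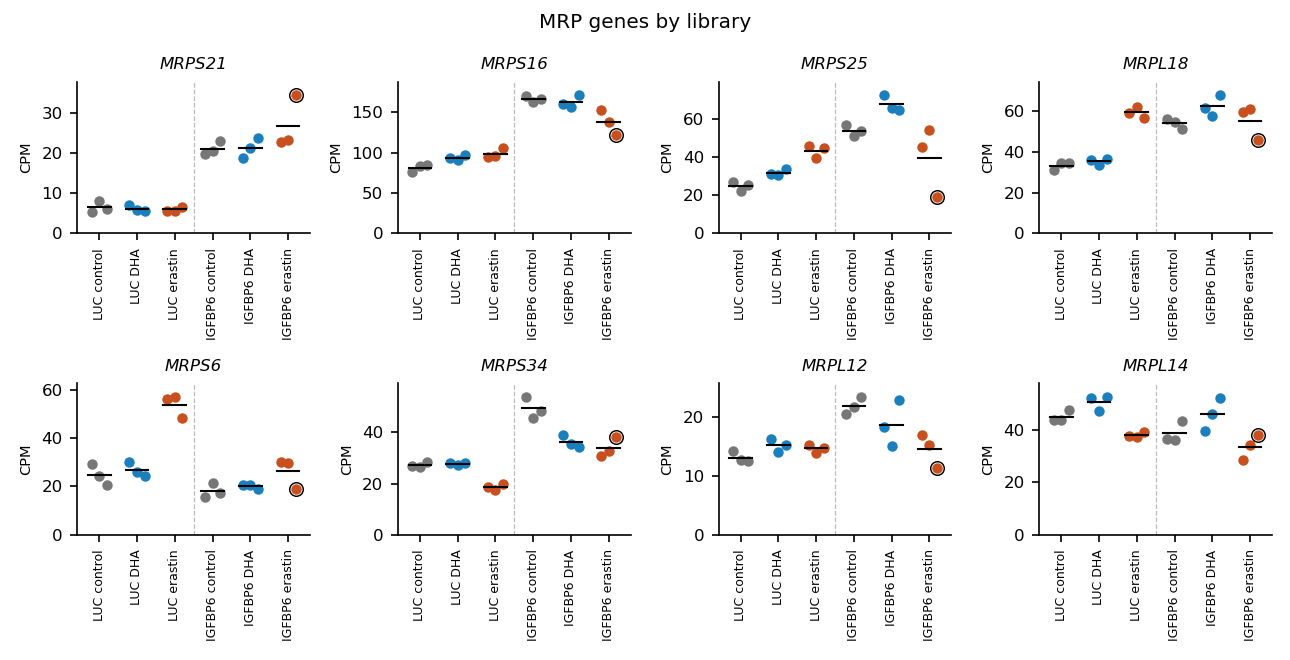
CPM of 8 MRP genes in each library by group (points) with group means (lines). Circles mark the shallow sh-IGFBP6 erastin library. MRPS25 and MRPL18 rise with erastin in sh-LUC without library overlap, while MRPS34 falls with erastin in both lines.

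The other lists were also read for erastin, with no test between lists. Of all tested genes, 21.4% rose and 24.4% fell in sh-LUC cells, and 14.7% rose and 14.3% fell in sh-IGFBP6 cells. All 13 mitochondrially encoded messenger RNAs rose in sh-IGFBP6 cells (median 2.22, and 1.30 without the shallow library, still 13), and 11 of 13 rose in sh-LUC cells (median 1.46). Without the shallow library all 13 rose in sh-LUC cells too (median 1.48). Nuclear subunits of oxidative phosphorylation fell in 37 of 79 cases in sh-LUC (1 rose) and 21 in sh-IGFBP6 (1 rose). Of 84 cytosolic ribosomal protein genes, erastin raised 35 and lowered 8 in sh-LUC cells, and in sh-IGFBP6 cells it raised 34 and lowered 5. The 5 mitochondrial ribosomal proteins under other symbols gave 2 rises and 3 falls in sh-LUC, and 0 rises and 2 falls in sh-IGFBP6. Assembly and rRNA modification factors gave 9 rises and 1 fall of 22 in sh-LUC, with the methyltransferases MRM1 (0.79) and NSUN4 (0.66) at the top. In sh-IGFBP6 they gave 0 rises and 4 falls. Their response differed between the lines for 6 of the 22, each below zero, against 14.1% above and 12.0% below for all tested genes. Of 9 activators of mitochondrial gene promoters, 3 rose and 1 fell in sh-LUC, and 4 rose and 1 fell in sh-IGFBP6. Their log2 fold changes ran from -0.64 to 1.18 and from -0.64 to 0.78. PPRC1, a coactivator among them, rose in both lines (0.89 and 0.27).

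DHA was set against control medium in each line, with the same control libraries as erastin. In sh-LUC cells 5 members rose and 1 fell, against 7.14% and 9.63% of all tested genes (median 0.05 against 0.01). Scaling by total count alone left 0 calls, and DESeq2 left 1 rise and 1 fall. MRPL21, a large-subunit protein with a bacterial counterpart, had 18.8, 16.8 and 20.6 CPM in control and 26.4, 24.1 and 28.0 CPM with DHA, without overlap (log2 fold change 0.47, SE 0.13, edgeR adjusted p = 0.00443). MRPS25 had 31.5, 30.7 and 33.8 CPM with DHA, above its controls (0.36, SE 0.12, edgeR adjusted p = 0.0189). MRPL30 (0.30) and MRPL34 (0.27) rose. MRPL33, a small protein of the large subunit, went from 19.5, 22.2 and 27.8 CPM to 19.4, 14.4 and 15.0 CPM (-0.56, SE 0.13, edgeR adjusted p = 8.5e-04). Single libraries decided these calls. That of MRPL21 was lost without sh-LUC control replicate 2, and that of MRPL33 without control replicate 3 (edgeR adjusted p = 0.06 and 0.123). MRPS25 lost its call without control replicates 2 or 3 or DHA replicate 3, MRPL30 without control replicates 2 or 3 or DHA replicates 2 or 3, and MRPL34 without any control or DHA replicates 1 or 3. By count, without sh-LUC control replicate 2 there were 1 rise and 1 fall, and without control replicate 3 there was 1 rise.

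In sh-IGFBP6 cells DHA lowered 14 members and raised 3, against 16.8% and 17.4% of all tested genes (median -0.06 against 0.00), and the sum was 3144 ± 78.2 CPM against 3288 ± 35.9 CPM (SD, n = 3). MRPS34 went from 53.9, 45.7 and 48.5 CPM to 39.0, 35.3 and 34.4 CPM, without overlap (log2 fold change -0.44, SE 0.10, edgeR adjusted p = 1.3e-04). MRPL58, a peptidyl-tRNA hydrolase built into the large subunit, went from 26.5, 28.3 and 27.3 CPM to 18.9, 19.5 and 25.1 CPM (-0.39, SE 0.13, edgeR adjusted p = 0.0126). MRPL33 (-0.36) and MRPL39 (-0.34) fell as well. MRPS25 rose from 56.9, 51.5 and 53.9 CPM to 72.7, 66.2 and 64.7 CPM (0.33, SE 0.09, edgeR adjusted p = 0.00212). MRPL14 (0.26) and MRPL52 (0.24) were called higher with overlapping libraries, and both calls were lost without the shallow erastin library (edgeR adjusted p = 0.0512 and 0.0504), which leaves 1 rise and 17 falls. Without sh-IGFBP6 control replicate 2 there were 1 rise and 7 falls. Scaling by total count alone left 0 rises and 4 falls. MRPL33 lost its call without control replicate 2 or DHA replicate 3, MRPL58 without control replicate 2 or DHA replicates 1 or 2, and MRPL39 without control replicates 1 or 2 or DHA replicates 2 or 3. MRPL14 lost it also without control replicates 1 or 2, DHA replicates 2 or 3 or erastin replicate 1, and MRPL52 without control replicates 2 or 3, DHA replicate 3 or erastin replicate 1. The calls of MRPS34 and MRPS25 held in all 18 fits that left out 1 library.

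The other lists were also read for DHA. Of all tested genes, 7.14% rose and 9.63% fell in sh-LUC cells, and 17.4% rose and 16.8% fell in sh-IGFBP6 cells. Cytosolic ribosomal protein genes rose in 9 and fell in 7 of 84 cases in sh-LUC cells, and in sh-IGFBP6 cells 26 rose and 2 fell. Nuclear subunits of oxidative phosphorylation gave 3 rises and 12 falls of 79, and 0 and 13. Mitochondrially encoded messenger RNAs had 0 calls in either line with edgeR (medians -0.88 and 0.53), but without the shallow library 6 of 13 fell in sh-LUC. Their DHA response differed between the lines for 0 of 13. Without the shallow library it differed for 12 of 13, each above zero (median 1.53), against 1538 of 15752 tested genes above zero. Assembly and rRNA modification factors rose in 3 of 22 cases in sh-LUC cells, with 0 falls, and in sh-IGFBP6 cells 1 rose and 1 fell.

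The lines differed in their DHA response for 7 members, all below zero, against 10.4% above and 10.2% below for all tested genes. Scaling by total count alone left 0 of these calls and DESeq2 left 2. MRPS34 had 26.9, 26.5 and 28.5 CPM in sh-LUC control and 28.2, 27.2 and 28.0 CPM with DHA, overlapping, while its sh-IGFBP6 libraries fell as given above. The difference was -0.46 (SE 0.15, edgeR adjusted p = 0.0166). MRPL37, a mitochondria-specific large-subunit protein, had 61.9, 61.9 and 65.4 CPM and 72.4, 68.4 and 71.7 CPM in sh-LUC, and 101, 101 and 107 CPM and 80.8, 88.3 and 96.1 CPM in sh-IGFBP6 (difference -0.38, SE 0.11, edgeR adjusted p = 0.00611). MRPL16 (-0.45), MRPS26 (-0.43), MRPL11 (-0.42), MRPS18B (-0.33) and MRPL17 (-0.32) completed the 7. Of these, MRPL37 and MRPS26 kept the call in all 18 fits that left out 1 library. MRPS34 lost it without sh-IGFBP6 control replicate 1 (edgeR adjusted p = 0.0595), and MRPL11 without sh-LUC control replicate 1 or sh-IGFBP6 DHA replicate 2. MRPL16 lost it in 7 of those fits and MRPS18B and MRPL17 in 6 each, all without a control or DHA library. As for the count, without sh-LUC control replicate 1 or sh-IGFBP6 control replicate 1 the count was 4, and without sh-IGFBP6 DHA replicate 3 it was 12.

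The compounds were also compared directly within each line, at the 1 dose of each that was used. In sh-LUC cells 18 members were higher and 9 lower with DHA than with erastin, against 26.0% and 24.2% of all tested genes (50.2% in either direction) (median 0.07 against 0.01). MRPL16 had 22.7, 25.7 and 25.0 CPM with DHA and 13.5, 13.9 and 15.9 CPM with erastin (log2 difference 0.77, SE 0.11, edgeR adjusted p = 3.6e-09), and MRPL34 (0.71), MRPS34 (0.57) and MRPL9 (0.45) were higher too. MRPS6 had 30.0, 25.8 and 24.3 CPM against 56.0, 57.0 and 48.2 CPM (-1.02, SE 0.09, edgeR adjusted p = 6.3e-19). MRPL18 (-0.75), MRPS17 (-0.48) and MRPS25 (-0.44) were lower, and MRPS17 lost its call without DHA replicates 2 or 3 or erastin replicates 1 or 3. By total count alone the split was 25 higher and 3 lower, with the median of all genes at 0.17.

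In sh-IGFBP6 cells 7 members were higher and 2 lower with DHA than with erastin, against 13.1% and 12.8% of all tested genes (median 0.08 against 0.00). MRPL14, at the subunit interface, had 39.3, 46.0 and 52.2 CPM with DHA and 28.4, 34.2 and 38.1 CPM with erastin (log2 difference 0.57, SE 0.11, edgeR adjusted p = 1.1e-05). MRPL54 (0.59), MRPS25 (0.48) and MRPL21 (0.39) were higher. MRPS6 (-0.56, edgeR adjusted p = 3.9e-04) and MRPS36 (-0.49, edgeR adjusted p = 0.0166) were lower. MRPL54 lost its call without DHA replicates 1 or 3 or erastin replicate 1, and MRPS36 without DHA replicate 3 or erastin replicates 1 or 2. Without the shallow library the counts were 6 and 2, and without erastin replicate 2 they were 4 and 1. Mitochondrially encoded messenger RNAs were lower with DHA than with erastin in both lines, 13 of 13 in sh-LUC and 11 of 13 in sh-IGFBP6, where 4 of 13 were called without the shallow library.

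Over the 4 treatment comparisons 36 of the 77 members (46.8%) were called in none, against 32.5% of all tested genes. In the same direction in all 4, 0 members and 2.25% of all tested genes were called. Across all 9 comparisons 11 members (14.3%) were called in none, against 11.7% of all tested genes: MRPL1, MRPL4, MRPL23, MRPL42, MRPL48, MRPL55, MRPS11, MRPS12, MRPS18A, MRPS18C and MRPS28. These 11 are named because the count left them over, after their values were seen.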

How the data were processed

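RNA was measured as sequencing counts per gene in 18 samples. Per the labels' protocols, total RNA was depleted of ribosomal RNA before MGIEasy library preparation. Per the submitters' processing notes, cutadapt 4.4, STAR 2.7.7a and featureCounts were used with GRCh38. The deposited values are raw counts per gene. No source used here gives the strand setting or annotation release. Genes that overlap on opposite strands (29 members) or share exons on the same strand (15) may hold each other's reads. From the counts, edgeR 4.0.16 in R 4.3.3 was fitted over 15189 genes (filterByExpr, minimum count 10, minimum total 15; TMM factors; 1 coefficient per group; all 18 libraries; quasi-likelihood F test; Benjamini-Hochberg adjustment; 12 residual degrees of freedom). The biological coefficient of variation was 6.29%. CPM use TMM-scaled library sizes, and the fit weights shallow libraries less than a mean of CPM does. The 2 lines that name no gene held at most 0.01082% of a library and were left out, and 1 gene had blank counts. Positions come from GENCODE 29. Of 60709 genes with counts, 60436 took symbols from a gene-name table and 243 from GENCODE 29. Promoter motifs of over 9 letters were replaced by shorter cores after a first search. The fit was tested on simulated data. Floors of 3 counts cover counting error alone. In each of 9 comparisons the text names, among called members with a mean of at least 5 CPM, up to 4 rises and 4 falls, then members called the same way in all 4 treatments or in opposite directions in the 2 lines, up to 8 per response difference, the MRPS18 paralogs, and the 3 highest and lowest members by level. Members and lists were chosen with earlier results of these data known. Alternatives were DESeq2 1.42.0, other scalings, no filter, a replicate block, counts without mitochondrial ribosomal RNA, the compared groups alone, and each library left out in turn.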

Additional observations from a re-analysis of the deposited data

Results flagged for a closer look

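For 19 member values the response to a compound differed between the lines by a test of the difference itself (the interaction term of the edgeR fit, adjusted p below 0.05). These were 12 of 77 members for erastin and 7 of 77 for DHA, against 26.2% and 20.6% of all tested genes. Values are the log2 change in sh-IGFBP6 minus that in sh-LUC. With erastin, the small-subunit members were MRPS25 (-0.96), MRPS16 (-0.48), MRPS6 (-0.47), MRPS23 (-0.40) and MRPS27 (-0.34). The large-subunit members below zero were MRPL18 (-0.68), MRPL12 (-0.61), MRPL21 (-0.55), MRPL3 (-0.51) and MRPL17 (-0.33), and those above zero were MRPL40 (0.72) and MRPL43 (0.45). With DHA, the values were MRPS34 (-0.46), MRPL16 (-0.45), MRPS26 (-0.43), MRPL11 (-0.42), MRPL37 (-0.38), MRPS18B (-0.33) and MRPL17 (-0.32). MRPL17, a large-subunit protein near the exit tunnel, is the member listed under both compounds, whose comparisons share the same control libraries.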

How the results depend on the processing

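Scaling by total count alone left 0 calls for DHA in sh-LUC, 4 for DHA in sh-IGFBP6, 2 and 0 for the erastin and DHA response differences and 5 for DHA against erastin in sh-IGFBP6. DESeq2 left 2, 7, 6, 2 and 4 in the same order, and it left 16 for DHA against erastin in sh-LUC and 13 for sh-IGFBP6 cells with erastin. With no filter, DHA against erastin in sh-IGFBP6 gave 5. Leaving out 1 library at a time gave 16 to 22 calls for erastin and 1 to 7 for DHA in sh-LUC, 8 to 21 and 8 to 18 in sh-IGFBP6, and 47 to 54 for the untreated lines. The same fits gave 7 to 12 and 4 to 12 for the erastin and DHA response differences, and 21 to 27 and 5 to 10 for DHA against erastin in sh-LUC and sh-IGFBP6. Of 65 named values 0 reversed under any alternative run, 37 kept their call in all 18 leave-one-out fits and 28 lost it in at least 1. Calls lost numbered 32 with total-count scaling, 23 with DESeq2, 11 with no filter, 2 with RLE factors, 2 with the compared groups alone and 0 without mitochondrial ribosomal RNA. Total-count scaling moved the median of all genes to -0.12 and -0.19 for erastin in sh-LUC and sh-IGFBP6, and to 0.11 for the untreated lines and -0.14 for the DHA response difference. It takes the mitochondrial ribosomal RNA of the shallow library as depth, where the TMM factor was 0.431 against 0.953 to 1.12 elsewhere. How many calls total-count scaling lost through that library was not tested. With a replicate block the counts were 20, 7, 20, 17, 54, 12, 7, 28 and 9 (erastin and DHA in sh-LUC, then sh-IGFBP6, untreated lines, response differences, DHA against erastin), and 0 named calls were lost. The main fit did not treat replicate numbers as pairs. Over 45 same-numbered pairs the correlation of deviations ran from -0.04 to 0.11, and 9 of 18 libraries were closest to their own number. These values cannot show whether the samples were paired. Depth limits members with a few counts per library, above all in the shallow sh-IGFBP6 erastin library.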
